A study of Mus musculus with 24 samples.

Results

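The 50 genes described here encode assembly factors of the ribosome, most of them parts of the small-subunit processome or of small nucleolar ribonucleoprotein particles (snoRNPs). They were taken as a list of symbols, and all 50 were matched to 1 of the 55414 mouse gene identifiers in the count files. The cells were 32D, a mouse bone marrow line that grows in interleukin-3, and the RNA was polyadenylated. Libraries came from a line labelled KO1 and a line labelled KO2, both given as Nat10+/- and as Nat10 deficient, and from WT cells. The labels do not give the Nat10 alleles or say how either KO line was derived, so each is treated as a line of its own. Every group was kept in interleukin-3 and serum and was collected at 0, 3, 6 or 9 h of 0.05 µg/ml actinomycin D, with 2 libraries for each of the 12 combinations, which the labels call biological replicates. The stated purpose was to measure mRNA lifetimes.

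Ribosomes are built in the nucleolus, where the long precursor of ribosomal RNA is bound by the small-subunit processome as it is transcribed. The t-UTP, UTP-B and MPP10 complexes and the U3 snoRNP make up that particle. Box C/D snoRNPs methylate the precursor, box H/ACA snoRNPs convert uridines in it to pseudouridine, and pre-40S factors accompany the small subunit to the cytoplasm. NAT10, the enzyme whose gene is labelled +/- in the KO lines, acetylates cytidines of 18S ribosomal RNA. Its yeast counterpart is itself a part of the processome. The enzyme itself was not measured here. Actinomycin D binds DNA and blocks transcription, and low concentrations of it are known to act most readily on ribosomal RNA synthesis by RNA polymerase I.

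The list was broader than the small subunit. By role it held 5 t-UTP genes, 5 UTP-B genes, 3 MPP10 genes, 9 other processome genes, 4 box C/D genes, 5 box H/ACA genes, 5 pre-40S genes and 3 abundant nucleolar RNA-binding proteins. A further 11 genes (Bop1, Pes1, Wdr12, Noc2l, Noc3l, Nop2, Nop16, Rrs1, Rrp1b, Rrp8 and Nifk) act on the large subunit or on its ribosomal RNA.

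Gene counts ranged from 15361601 to 17338939 per library. Levels are given as CPM, a gene's counts scaled to a common library total by the trimmed mean of M-values (TMM), so that a change is relative to the average transcript of the library and not an amount per cell. Differences are log2 values fitted by edgeR over all 24 libraries and 16167 tested genes, followed by ± their standard error. A gene is said to rise, fall, be higher or be lower where its Benjamini-Hochberg adjusted p was under 0.05. Libraries of a group differed little, with a common coefficient of variation of 0.0206 in edgeR, so small differences pass this threshold. The p-values measure spread between libraries of the same line and time, not between lines. A difference tied to Nat10 therefore cannot be told apart from other differences between a KO line and the WT cells. All 50 genes passed the filter on low counts. Nat10 itself had 97.7 and 108 CPM in KO1 and 99.2 and 95.2 CPM in KO2, against 111 and 113 CPM in WT at 0 h. Its log2 difference from WT was -0.12 ± 0.05 in KO1 and -0.21 ± 0.05 in KO2 (edgeR adjusted p = 0.0486 and 0.000291). Nat10 was thus lower in both lines at 0 h, close to the threshold in KO1, and far from absent. At 3 h it passed the test in neither line (-0.06 ± 0.05 in KO1 and -0.08 ± 0.05 in KO2). It was lower in both at 6 h (-0.26 ± 0.05 in KO1 and -0.40 ± 0.05 in KO2) and at 9 h (-0.39 ± 0.06 and -0.44 ± 0.06). Spike-in RNA made up 240 to 353 CPM in KO1, 324 to 844 CPM in KO2 and 6.92 to 15.9 CPM in WT libraries. A per-cell scale could therefore not be set across genotypes. Of 10 markers of 32D cells and myeloid progenitors, the summed level at 0 h was 1444 to 1455 CPM in KO1, 1399 to 1405 CPM in KO2 and 1502 to 1520 CPM in WT. The progenitor marker Kit was at 0 counts in both KO lines at 0 h and in all 3 genotypes at 9 h, and Mpo was at 0 in KO2 at 0 h and not at 9 h.

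Together the 50 genes took 0.97% ± 0.00283 of gene counts in KO1 at 0 h and 0.916% ± 0.00396 in KO2, against 0.856% ± 0.000495 in WT (SD, n = 2 each). In KO1 the share then stood at 1.1% at 3 h, 0.763% at 6 h and 0.595% at 9 h. In KO2 it stood at 1.14%, 0.758% and 0.589% at the same times, and in WT at 0.952%, 0.693% and 0.581%. The share thus passed through its highest value at 3 h in each genotype and was lowest at 9 h, when the genotypes lay close together. Ncl and Npm1 weigh most in this sum. In WT they averaged 1332 and 1472 CPM at 0 h, and 2247 and 1761 CPM at 3 h. The median log2 change of the 50 genes at 3 h was only 0.04 in KO1, 0.16 in KO2 and 0.15 in WT. The higher share at 3 h is therefore not a rise of the whole list. In bulk RNA, fewer cells of a type and less RNA per cell cannot be told apart.

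Per kilobase of exon, the list spanned a wide range in WT cells at 0 h. Npm1, a nucleolar chaperone, stood highest at 552 ± 0.627 CPM per kb (SD, n = 2), followed by Ncl, the nucleolar RNA-binding protein nucleolin, at 131 ± 1.43. Npm1 has near-identical processed copies in the mouse genome, so its count may include or lose reads to them. Among the snoRNP genes, Nhp2 (113 ± 0.916) and Nop10 (90.2 ± 2.77), the small core proteins of the H/ACA particle, and Nop56 (83.1 ± 1.27), a core protein of the C/D particle, led. The most abundant members of the other roles were Imp3 of the MPP10 complex (68.9 ± 0.429 CPM per kb), the t-UTP gene Wdr43 (68.8 ± 0.384), the processome gene Nop14 (56.4 ± 1.22), the large-subunit gene Noc2l (51.3 ± 0.00927), the UTP-B gene Utp18 (25.8 ± 0.491) and the pre-40S endonuclease gene Nob1 (24.4 ± 0.0243). Dcaf13 was lowest at 7.21 ± 0.297 CPM per kb. The listed exon length is a union over isoforms, so these values rank genes only roughly.

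Promoters of 40 members were matched in RefSeq (GRCm38.p6), as windows from 250 bases before to 50 after the annotated start. The E-box CACGTG, a motif known to be bound by MYC and related factors, was found in 9 of 40 members (22.5%). It was in 8.09% of 27025 genes with promoter windows of the same length. Those genes were not limited to the 16167 tested here, so the shares are not set against expressed genes alone. CCGGAAG or its reverse complement CTTCCGG, a core of ETS-family sites, was in 15 (37.5%), against 9.93% of those genes. CATGTG or CACATG was in 8 (20%), against 15.9%, and GGGCGG or CCGCCC in 28 (70%), against 38.2%. Both strands were searched, and matches of different motifs may overlap. CACGTG was in the windows of Imp4, Ltv1, Nop2, Pes1, Tsr1, Utp18, Utp20, Utp4 and Wdr43.

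The 100 bases before the start are shown, 5′ to 3′, for Nop56 and Nop58, partners in 1 particle whose mRNAs diverged over time, and for Nop2 and Utp18, which carry CACGTG close to the start and differed at 3 h. Capitals mark CACGTG and CCGGAAG. Neither was found in the windows of Nop56 and Nop58. At 3 h Nop2 was higher than at 0 h in each genotype and Utp18 was lower, with changes of -0.59 in KO1, -0.46 in KO2 and -0.50 in WT. A match is a description of these letters only.
Nop56, chr2:130274312-130274411, plus strand: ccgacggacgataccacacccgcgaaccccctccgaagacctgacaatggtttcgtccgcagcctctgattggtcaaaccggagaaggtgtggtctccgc
Nop58, chr1:59684906-59685005, plus strand: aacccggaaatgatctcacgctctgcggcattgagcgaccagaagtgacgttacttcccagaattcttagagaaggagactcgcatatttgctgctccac
Nop2, chr6:125131783-125131882, plus strand: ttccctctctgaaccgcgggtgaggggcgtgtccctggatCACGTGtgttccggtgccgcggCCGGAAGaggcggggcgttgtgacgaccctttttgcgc
Utp18, chr11:93885767-93885866, minus strand: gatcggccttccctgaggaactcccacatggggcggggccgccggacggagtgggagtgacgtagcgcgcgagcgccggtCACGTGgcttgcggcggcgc

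At 0 h, assembly-factor mRNAs were higher in both KO lines than in WT, more of them in KO1. In KO1, 36 of 50 were higher than in WT and 0 were lower, against 15% and 12.3% of all tested genes. In KO2, 25 were higher and 3 were lower, against 15.1% and 14.3% of all genes. DESeq2 called 31 higher in KO1 and 21 in KO2, and upper-quartile scaling gave 30 and 17. Both counts of higher genes also dropped on leaving out any 1 library used. The median log2 difference of the 50 was 0.18 in KO1 and 0.09 in KO2, beside 0.01 and 0.00 over all genes. The 3 lower genes in KO2 (Npm1, Utp4 and Nop10) became 0 without WT replicate 1 and 1 without either KO2 replicate. No member differed from WT by as much as 2-fold at 0 h. The KO1 and KO2 comparisons use the same WT libraries, and their values are set side by side without a count of overlap.

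Among the processome genes outside the named complexes, Utp20 and Nop14 had the highest differences at 0 h. Utp20, a very large scaffold protein of the processome, had 128 and 141 CPM in KO1 and 132 and 129 CPM in KO2, against 95.6 and 97.2 CPM in WT. All KO values exceeded both WT values, and the log2 differences were 0.48 ± 0.04 in KO1 and 0.43 ± 0.04 in KO2 (edgeR adjusted p = 6.68e-17 and 6.45e-15). Nop14, which binds Noc4l in the processome, had 213 and 217 CPM in KO1 and 199 and 190.0 CPM in KO2, against 156 and 152 CPM in WT. Its log2 differences were 0.48 ± 0.04 in KO1 and 0.34 ± 0.04 in KO2, again with no overlap between either KO line and WT. Noc4l itself was higher in both lines (0.24 ± 0.05 in KO1 and 0.15 ± 0.05 in KO2), as was the helicase gene Ddx52 (0.20 ± 0.05 in KO1 and 0.14 ± 0.05 in KO2). Utp11 and Dcaf13 passed the test in KO1 (0.23 ± 0.04 and 0.15 ± 0.05) and missed it in KO2 (0.06 ± 0.04 and 0.08 ± 0.05). Utp3, Utp14a and Ddx10 passed the test in neither line.

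All 4 box C/D genes were higher in both lines at 0 h, against 15% of all genes in KO1 and 15.1% in KO2. Rrp9, the protein specific to the U3 snoRNP, had 75.9 and 73.3 CPM in KO1 and 66.4 and 63.7 CPM in KO2, against 54.3 and 55.6 CPM in WT, with log2 differences of 0.44 ± 0.06 in KO1 and 0.24 ± 0.06 in KO2. Fbl, the methyltransferase fibrillarin, was higher by 0.20 ± 0.03 in KO1 and 0.10 ± 0.03 in KO2. Nop56 and Nop58, the paired scaffold proteins of the particle, differed by 0.27 ± 0.03 and 0.29 ± 0.03 in KO1 and by 0.08 ± 0.03 and 0.09 ± 0.03 in KO2. The pair stood about equally far above WT within each line.

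The box H/ACA genes were less uniform. Dkc1, the pseudouridine synthase dyskerin, had 235 and 233 CPM in KO1 and 219 and 225 CPM in KO2, against 169 and 176 CPM in WT. The log2 difference was 0.44 ± 0.03 in KO1 and 0.36 ± 0.03 in KO2 (edgeR adjusted p = 4.7e-21 and 1.29e-16), and neither KO line overlapped WT. Nop10, which binds dyskerin, had 112 and 117 CPM in KO1 and 87.6 and 95.1 CPM in KO2, against 102 and 97.9 CPM in WT. It was higher in KO1 (0.20 ± 0.04) and lower in KO2 (-0.13 ± 0.04). The KO2 call was lost without WT replicate 1 (log2 difference -0.10, edgeR adjusted p = 0.163) or KO2 replicate 1 (-0.07, edgeR adjusted p = 0.341). Nhp2 was higher in KO1 (0.23 ± 0.04) and near WT in KO2 (-0.01 ± 0.04, edgeR adjusted p = 0.915). Gar1, the fourth core protein, passed the test in neither line. Nolc1, a chaperone that shuttles snoRNPs, was higher in KO2 by only 0.08 ± 0.03.

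Within the t-UTP complex, which connects ribosomal RNA transcription to processing, Heatr1 and Wdr43 were higher in both lines. Wdr43 had 405 and 411 CPM in KO1 and 376 and 380.0 CPM in KO2, against 330.0 and 327 CPM in WT, and Heatr1 had 149.5 and 153 CPM in KO1 and 148 and 141 CPM in KO2, against 125 and 121 CPM in WT. For both genes every KO library exceeded every WT library. Utp15 and Wdr75 were higher in KO1 (0.15 ± 0.05 and 0.13 ± 0.04) and missed the threshold in KO2 (0.09 ± 0.05 and 0.03 ± 0.04). Utp4 had 126 and 123 CPM in KO1 and 111 and 113 CPM in KO2, against 123 and 119 CPM in WT. It was lower in KO2 (-0.11 ± 0.04, edgeR adjusted p = 0.0364), a call lost without WT replicate 1, KO2 replicate 1 or KO2 replicate 2 (-0.09, -0.10 and -0.13), with DESeq2 or without the filter on low counts (-0.12 each). Of the UTP-B genes, Utp6 was higher in both lines (0.37 ± 0.05 in KO1 and 0.23 ± 0.05 in KO2) and Utp18 in KO1 (0.16 ± 0.05). Wdr3, Wdr36 and Tbl3 passed in neither. In the MPP10 complex, Imp4 and Mphosph10 were higher in KO1 by 0.13 ± 0.04 and 0.14 ± 0.06, and no gene of the complex passed in KO2.

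Higher genes were also found among the pre-40S and large-subunit roles at 0 h. All 5 pre-40S genes were higher in KO1 and 4 of 5 were higher in KO2, against 15% and 15.1% of all genes. Rrp12, an export factor of pre-ribosomes, led that role with 123 and 127 CPM in KO1 and 116 and 122 CPM in KO2, against 92.1 and 95.9 CPM in WT. Its log2 differences were 0.41 ± 0.05 in KO1 and 0.34 ± 0.05 in KO2. Of the 11 large-subunit genes, 7 were higher in KO1 and 6 in KO2, against the same shares of all genes. Noc2l, whose yeast counterpart forms pairs with Noc1 and Noc3, averaged 251 ± 0.918 CPM in KO1 and 281 ± 3.2 CPM in KO2, against 213 ± 0.0385 CPM in WT (SD, n = 2 each). Its values did not overlap between any of the 3 genotypes, and 0.40 ± 0.03 was the log2 difference in KO2. About 14.4% of its exon bases are shared with Samd11, and counting ignored strand. Ncl and the helicase gene Ddx21 were higher in both lines, Ncl by 0.17 ± 0.02 in KO1 and 0.10 ± 0.02 in KO2 and Ddx21 by 0.31 ± 0.03 in KO1 and 0.25 ± 0.03 in KO2. Npm1 was higher in KO1 (0.09 ± 0.02) and lower in KO2 (-0.05 ± 0.02). The KO2 difference in Npm1 missed the threshold without either WT replicate or KO2 replicate 2 (-0.05, -0.05 and -0.03).

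Other measures also separated the lines from WT at 0 h. Myc, which encodes a transcription factor known to act on many ribosome-assembly genes, had 481 and 492 CPM in KO1 and 426 and 444 CPM in KO2, against 344 and 353 CPM in WT. Its log2 differences were 0.48 ± 0.03 in KO1 and 0.32 ± 0.03 in KO2, and no library of either KO line overlapped WT. At 3 h Myc was lower than in WT, by -0.35 ± 0.06 in KO1 and -0.25 ± 0.06 in KO2. It was also lower at 6 h, by -0.34 ± 0.08 in each line. At 9 h Myc was lower in KO1 (-0.23 ± 0.09) and missed the threshold in KO2 (-0.20 ± 0.09). Summed over 8 macrophage and monocyte markers, the 0 h level was 52.5 to 55.5 CPM in KO1 and 37.3 CPM in KO2, against 108 CPM in WT, with Mrc1, C1qa, C1qb and Ly6c2 at 0 counts in each genotype. At 9 h these sums were 290 to 293 CPM in KO1 and 246 CPM in KO2, against 305 to 310 CPM in WT. Over 8 stromal markers the 0 h sum was 0.193 to 0.423 CPM in KO1 and 0.121 to 0.182 CPM in KO2, against 5.31 to 7.92 CPM in WT. At 9 h the stromal sum was 0.495 to 1.15 CPM in KO1 and 1.16 CPM in KO2, against 0.987 to 1.11 CPM in WT. Over 7 lymphoid markers the 0 h sum was 7.74 to 12.2 CPM in KO1 and 8.73 to 10.3 CPM in KO2, against 21.7 to 23.5 CPM in WT. Over 6 erythroid markers it was higher in the KO lines, at 6.81 to 6.9 CPM in KO1 and 16.3 to 18.8 CPM in KO2, against 4.96 to 5.61 CPM in WT. The part of these differences in the assembly-factor levels was not tested.

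KO2 stood below KO1 for many of the 50 genes at 0 h. Compared with KO1, 15 were lower and 1 was higher in KO2, against 9.55% and 7.29% of all genes, with a median log2 difference of -0.07. The count of lower genes dropped to 9 without KO2 replicate 2. Nop10 (-0.33 ± 0.04), Nhp2 (-0.24 ± 0.04) and Rrp9 (-0.20 ± 0.06) had the lowest differences, and the Rrp9 call was lost without KO1 replicate 1 or KO2 replicate 2 (-0.17 each). Nop56 and Nop58 each differed by -0.19 on the log2 scale. Noc2l was the 1 gene higher in KO2, at 0.17 ± 0.03 (edgeR adjusted p = 1.1e-05).

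After 3 h of actinomycin D, members lay on both sides of 0 h, as all genes did. In KO1, 24 genes were higher at 3 h than at 0 h and 18 were lower, against 37.9% and 33.4% of all genes. In KO2 the counts were 27 and 16, against 37.6% and 33.3%, and in WT 26 and 20, against 38.6% and 33.5%. The median of the 50 was 0.04, 0.16 and 0.15 in KO1, KO2 and WT, beside 0.10, 0.10 and 0.13 over all genes. The split moves with the scale. With spike-in scaling, KO1 had 18 higher and 26 lower, and KO2 had 4 higher and 36 lower, with all-gene medians of -0.05 and -0.55. With upper-quartile scaling, KO1 had 34 higher and 12 lower, KO2 had 34 and 7, and WT had 32 and 11. Counts on these scales, here and elsewhere, are given without the all-gene share on the same scale. The median of the 50 stayed within 0.07 of the all-gene median on each of those scales.

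The roles did not move as one by 3 h. All 5 box H/ACA genes were higher in each genotype on the TMM scale, and so were all 3 abundant nucleolar proteins. Of all genes, 37.9%, 37.6% and 38.6% were higher in KO1, KO2 and WT, and these roles hold few genes. Of the t-UTP genes only Utp4 was higher. No MPP10 gene was higher. With spike-in scaling these counts do not hold in KO2, where 4 of the 50 genes were higher. Nop10 had 217 and 219 CPM at 3 h against 112 and 117 CPM at 0 h in KO1, and 215 and 206 against 87.6 and 95.1 CPM in KO2. In WT it had 209 and 202 CPM at 3 h against 102 and 97.9 CPM at 0 h. These log2 changes of 0.93 ± 0.04 in KO1, 1.20 ± 0.04 in KO2 and 1.04 ± 0.04 in WT were the highest or next to highest of the list. Nolc1 had 515 and 519 CPM at 3 h against 334 and 328 CPM at 0 h in KO1, 629.9 and 630.4 against 331 and 340.3 CPM in KO2, and 565 and 564 against 322 and 313 CPM in WT. No 3 h library of Nolc1 overlapped a 0 h library.

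Nop2, a methyltransferase of 28S ribosomal RNA, rose by 0.93 ± 0.04 in KO1, 0.89 ± 0.04 in KO2 and 0.79 ± 0.04 in WT. Its 3 h libraries lay at 229.7 and 229 CPM in KO1, 220.2 and 227 CPM in KO2 and 195 and 195 CPM in WT, against 119.7 and 121 CPM in KO1, 122 and 119 CPM in KO2 and 116 and 109.9 CPM in WT at 0 h. Nop16 rose by 0.73 ± 0.05 in KO1, 0.77 ± 0.05 in KO2 and 0.70 ± 0.05 in WT. Ncl reached 2461 and 2470.5 CPM in KO1, 2497 and 2504 CPM in KO2 and 2264 and 2230.0 CPM in WT at 3 h, against 1497 and 1491 CPM in KO1, 1429.7 and 1423 CPM in KO2 and 1322 and 1343 CPM in WT at 0 h. The large-subunit genes Wdr12, Nifk, Pes1 and Bop1 rose in each genotype too, by 0.31 to 0.78 on the log2 scale. Noc2l, Noc3l and Rrp1b of that role fell in each genotype, with changes from -0.07 to -0.58.

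Other members had already fallen at 3 h. Ddx10, a helicase of the processome, had 33.0 and 33.7 CPM at 3 h against 99.1 and 109 CPM at 0 h in KO1, and 30.6 and 30.7 against 104 and 99.0 CPM in KO2. In WT it had 20.5 and 20.2 CPM at 3 h against 103 and 98.7 CPM at 0 h. The log2 changes were -1.64 ± 0.07 in KO1, -1.73 ± 0.07 in KO2 and -2.31 ± 0.08 in WT, the lowest of the list in each genotype. Wdr43 had 154 and 155 CPM at 3 h in KO1, 155 and 159 CPM in KO2 and 121 and 114 CPM in WT, with changes of -1.40 ± 0.03 in KO1, -1.27 ± 0.03 in KO2 and -1.49 ± 0.03 in WT. Wdr75 changed by -0.64 in KO1, -0.50 in KO2 and -0.84 in WT, and Imp3 by -0.62 in KO1, -0.61 in KO2 and -0.36 in WT on the same scale. Ddx10 and Wdr43 were the only members to fall at least 2-fold by 3 h in these fits.

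**Figure D1:**
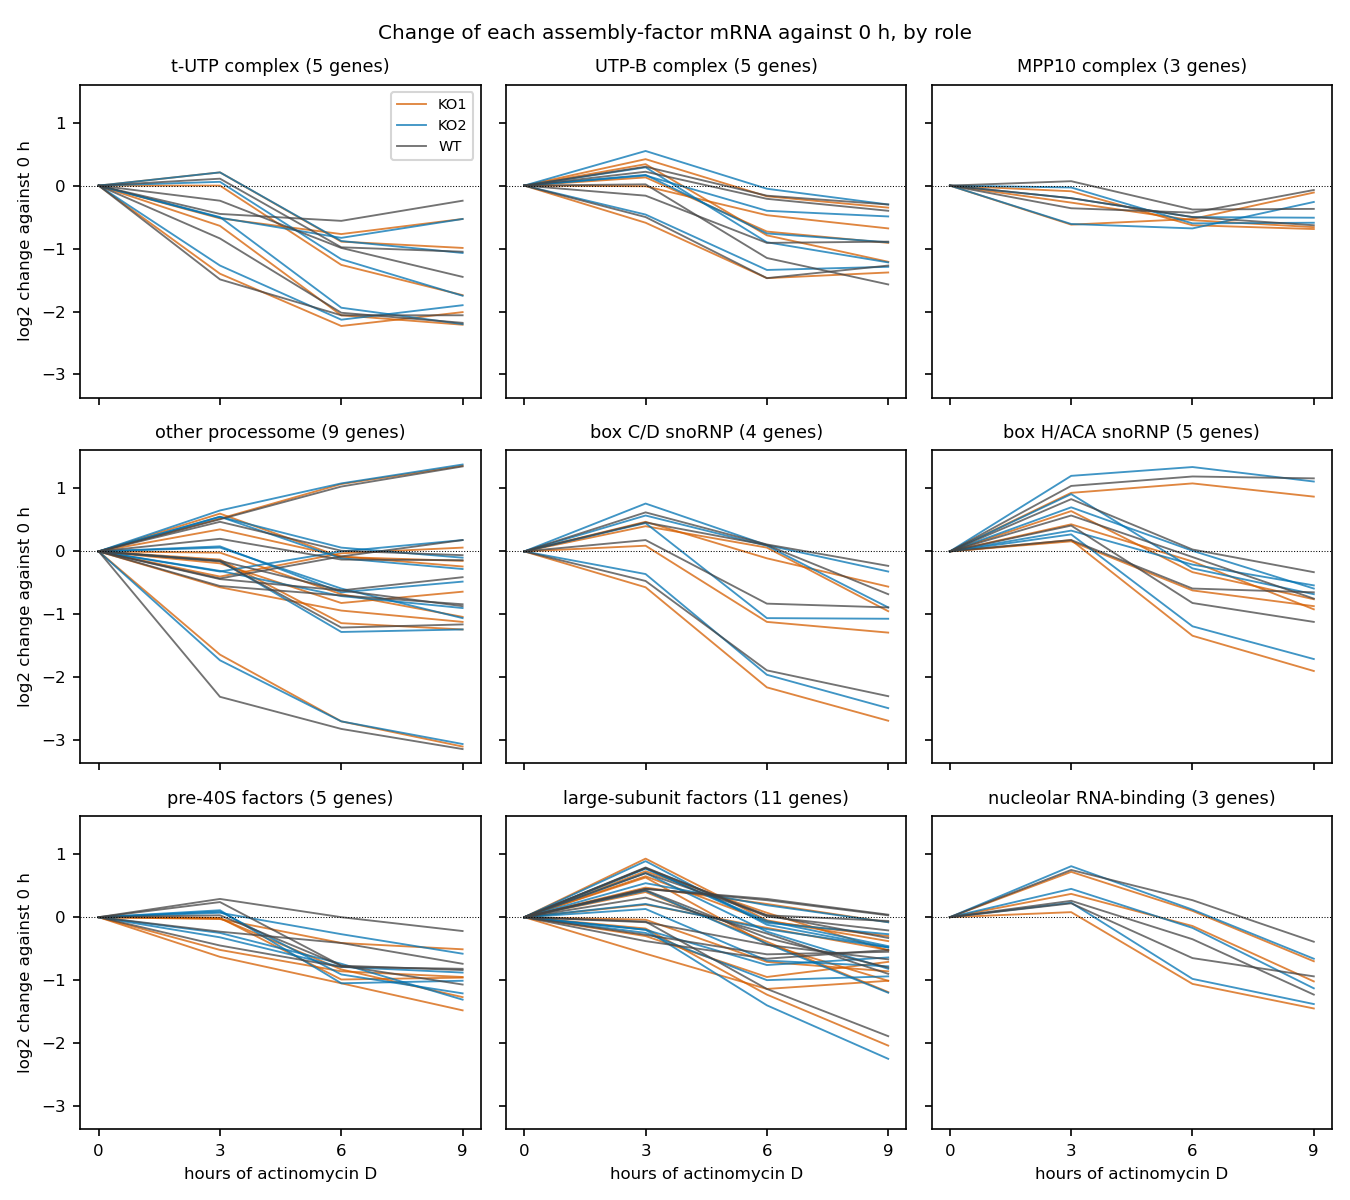
Fitted log2 change of each of the 50 genes against 0 h (y axis) at 0, 3, 6 and 9 h of actinomycin D (x axis), 1 panel per role, 1 line per gene and genotype (KO1 orange, KO2 blue, WT grey). Box H/ACA and abundant nucleolar genes pass above 0 at 3 h and most fall below it by 9 h, while Utp3 in the panel of other processome genes and Nop10 in the H/ACA panel stay above 0 at every time.

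By 6 h most members had fallen. In KO1, 39 were lower and 4 higher than at 0 h, against 37.4% and 40.6% of all genes. In KO2 the counts were 37 lower and 6 higher, against 37.7% and 41.5%, and in WT 36 and 7, against 36.7% and 42.4%. The medians of the 50 were -0.66, -0.62 and -0.47, beside 0.11, 0.12 and 0.14 over all genes. With upper-quartile scaling 16, 17 and 18 members were higher and 31, 29 and 25 lower in KO1, KO2 and WT. With spike-in scaling 2 were higher and 48 lower in KO1 and 1 and 48 in KO2. The all-gene shares above are for TMM and do not apply to these counts. Pes1, a scaffold of the large-subunit PeBoW complex, was among the few called higher at 6 h, by 0.21 ± 0.04 in KO1, 0.19 ± 0.04 in KO2 and 0.27 ± 0.04 in WT. It turned to -0.25 in KO1 and -0.96 in KO2 with spike-in scaling. Rrs1, which recruits the 5S particle to the large subunit, was higher at 6 h in WT by 0.29 ± 0.05 and lower in KO1 and KO2 by -0.17 and -0.19.

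At 9 h the fall covered nearly the whole list. In KO1, 45 genes were lower than at 0 h and 2 were higher, against 38.3% and 42.2% of all genes. In KO2 the counts were 46 and 3, against 38.8% and 42%, and in WT 42 and 3, against 38.5% and 43.2%. The fall was at least 2-fold for 20 genes in KO1, 19 in KO2 and 13 in WT, against 22.1%, 22.5% and 22.6% of all genes. The WT count lies near that background. The median of the 50 was -0.91, -0.80 and -0.68, beside 0.12, 0.09 and 0.13 over all genes. The list's median thus lay -1.03, -0.89 and -0.80 from the all-gene median in KO1, KO2 and WT, and this distance stayed within 0.01 with spike-in, upper-quartile or relative-log-expression scaling where each was run. With upper-quartile scaling 40, 40 and 32 members were lower and 6, 5 and 12 higher in KO1, KO2 and WT.

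Within that fall, proteins that form 1 particle diverged in their mRNA levels. Nop56 and Nop58 sit side by side in every box C/D snoRNP. Per kilobase of exon their WT levels at 0 h were 83.1 ± 1.27 CPM per kb for Nop56 and 29.6 ± 0.208 CPM per kb for Nop58. The ratios below are of CPM without regard to length, so their change over time can be read and their size cannot. In KO1 the ratio of Nop56 to Nop58 CPM was 1.06 and 1.06 at 0 h, 2.2 and 2.18 at 3 h, 4.25 and 4.55 at 6 h, and 4.56 and 4.69 at 9 h. In KO2 it was 1.06 and 1.06, 2.34 and 2.28, 4.08 and 4.81, and 4.56 and 5.05 at those times. In WT it was 1.06 and 1.08, 2.31 and 2.25, 4.04 and 4.55, and 4.67 and 4.36. A ratio within a library needs no scale between libraries, and at each time the genotypes gave similar values. Nop56 rose by 0.47, 0.76 and 0.62 at 3 h and stood at -0.56 ± 0.03, -0.32 ± 0.03 and -0.23 ± 0.03 at 9 h in KO1, KO2 and WT. Nop58 had 59.7 and 60.8 CPM in KO1, 62.1 and 58.4 CPM in KO2 and 62.3 and 66.7 CPM in WT at 9 h, against 392 and 384 CPM in KO1, 343 and 335 CPM in KO2 and 316 and 319.7 CPM in WT at 0 h. Its changes of -2.69 ± 0.04 in KO1, -2.49 ± 0.04 in KO2 and -2.30 ± 0.04 in WT were among the 3 lowest of the list in each genotype. Both genes host small nucleolar RNA genes, and 8.1% of the Nop56 exon bases and 0.8% of those of Nop58 are shared with other annotated genes. Nop56 lies on chromosome 2, 130116350 to 130121233 and Nop58 on chromosome 1, 59724130 to 59758203 (GRCm39).

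The dyskerin particle showed the same kind of divergence. In KO1 the ratio of Nop10 to Dkc1 CPM was 0.476 and 0.504 at 0 h, 0.811 and 0.832 at 3 h, 2.64 and 2.59 at 6 h, and 3.37 and 3.32 at 9 h. In KO2 it was 0.4 and 0.423, 0.792 and 0.779, 2.36 and 2.4, and 2.81 and 3.01. In WT it was 0.604 and 0.555, 0.916 and 0.871, 2.27 and 2.42, and 2.77 and 2.85. The ratio was highest at 9 h in all 3 genotypes. Nop10 at 9 h stood at 207 and 211 CPM in KO1, 198 and 196 CPM in KO2 and 219.7 and 226 CPM in WT, above the 0 h libraries of the same genotype (0.87 ± 0.04 in KO1, 1.11 ± 0.04 in KO2 and 1.16 ± 0.04 in WT). The KO2 change was -0.02 with spike-in scaling. Dkc1 at 9 h had 61.5 and 63.6 CPM in KO1, 70.5 and 65.1 CPM in KO2 and 79.5 and 79.3 CPM in WT, with changes of -1.90 ± 0.04 in KO1, -1.71 ± 0.04 in KO2 and -1.12 ± 0.04 in WT. Gar1 and Nhp2 lay between them, with 9 h changes of -0.87 and -0.92 in KO1, -0.54 and -0.59 in KO2 and -0.65 and -0.75 in WT.

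A wider gap lay between Utp3 and Ddx10, both processome genes. Utp3 had 85.5 and 82.2 CPM at 0 h, 119 and 121 CPM at 3 h, 178 and 175 CPM at 6 h and 212 and 219.7 CPM at 9 h in KO1. In KO2 it had 80.6 and 83.0, 128 and 129, 174 and 172 and 212 and 213 CPM at those times, and in WT 81.3 and 75.5, 110.1 and 113, 159 and 160.3 and 199.7 and 201 CPM. The level rose step by step with no overlap between times, to 1.36 ± 0.04, 1.38 ± 0.04 and 1.35 ± 0.04 at 9 h in KO1, KO2 and WT. With spike-in scaling the KO2 change at 6 h was -0.07. Ddx10 ended at 12.5 and 11.8 CPM in KO1, 13.0 and 11.4 CPM in KO2 and 12.2 and 10.7 CPM in WT. Its 9 h changes were -3.10 ± 0.08 in KO1, -3.06 ± 0.08 in KO2 and -3.14 ± 0.09 in WT (edgeR adjusted p = 2.36e-58, 2.99e-58 and 1.9e-58). The ratio of Utp3 to Ddx10 lay between 0.752 and 0.863 in all 0 h libraries and between 16.3 and 18.8 in all 9 h libraries. Utp3 is a gene of 1 exon block with a span of 1629 bp (chromosome 5, 88702321 to 88703949), and Ddx10 is the longest gene of the list at 149419 bp (chromosome 9, 53009935 to 53159353, both GRCm39).

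**Figure D2:**
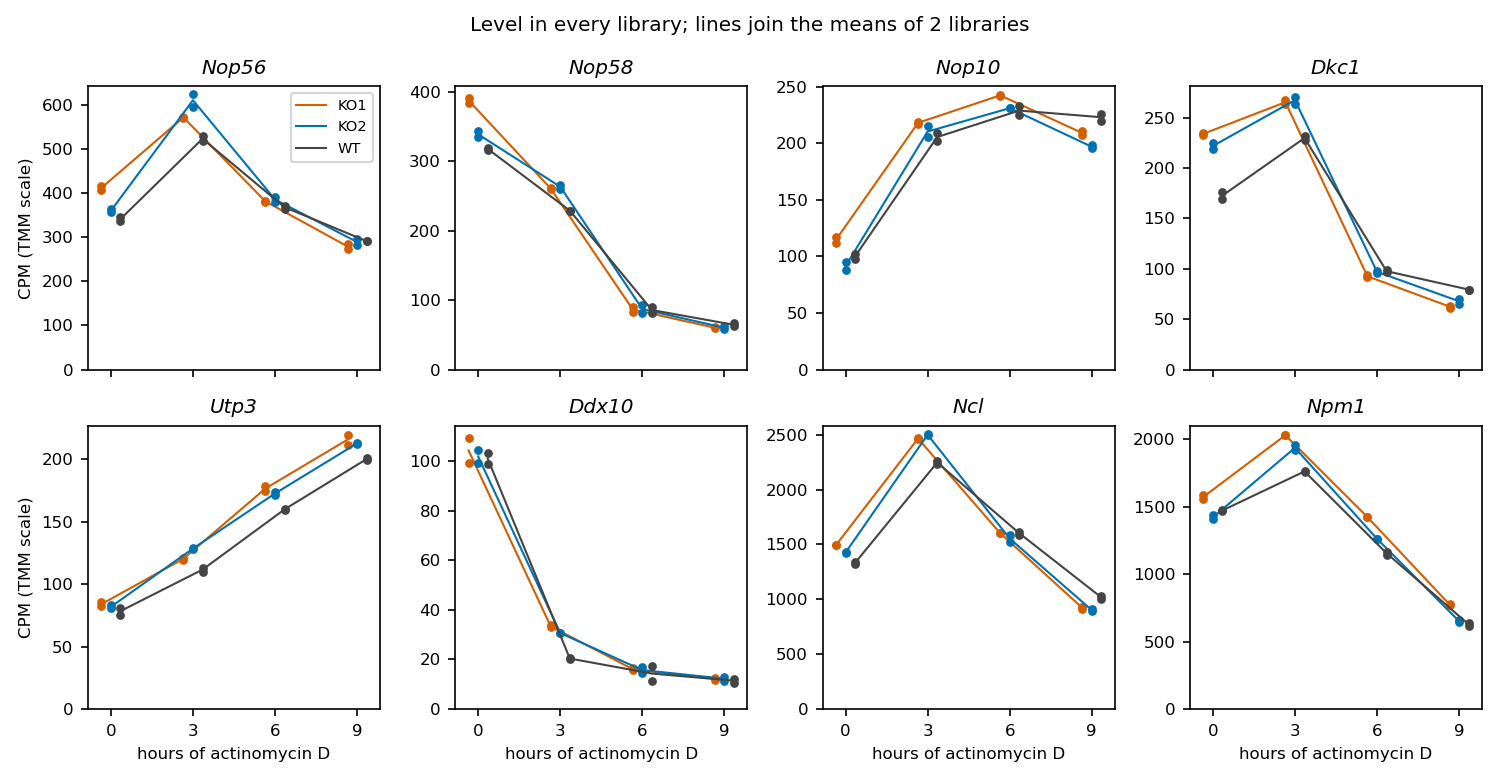
CPM on the TMM scale (y axis) of 8 members at 0, 3, 6 and 9 h of actinomycin D (x axis, genotypes set side by side). Points are libraries, lines join the means of 2 libraries, KO1 is orange, KO2 blue and WT grey. The CPM of Nop56 over that of Nop58, not scaled to length, ends at 4.36 to 5.05, Nop10 and Utp3 end above their 0 h level, and Ncl and Npm1 are highest at 3 h in each genotype.

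Most of the remaining genes ended well below their start. The t-UTP genes Wdr75, Wdr43 and Heatr1 changed by -2.21, -2.01 and -1.74 in KO1 at 9 h, by -2.20, -1.90 and -1.75 in KO2 and by -2.18, -2.06 and -1.45 in WT. Wdr75 had 33.1 and 34.5 CPM in KO1, 30.1 and 33.2 CPM in KO2 and 30.2 and 32.8 CPM in WT at 9 h, against 157 and 156 CPM in KO1, 148 and 144 CPM in KO2 and 147 and 139 CPM in WT at 0 h. Noc2l had 60.8 and 61.4 CPM in KO1, 59.1 and 59.3 CPM in KO2 and 55.6 and 59.7 CPM in WT at 9 h, changes of -2.04 ± 0.04 in KO1, -2.25 ± 0.04 in KO2 and -1.89 ± 0.04 in WT. Its partner Noc3l changed less, by -1.01 in KO1, -0.94 in KO2 and -0.55 in WT. Ncl and Npm1, both high at 3 h, stood at -0.70 and -1.02 in KO1, -0.66 and -1.13 in KO2 and -0.39 and -1.23 in WT. Members that had not left their 0 h level by the test at 9 h were Pes1 in all 3 genotypes, Imp3 in KO1 and WT, Ddx52 in KO1, and Noc4l, Rrs1 and Nifk in WT. Ddx52 was higher in KO2 and WT at 9 h (0.18 ± 0.05 and 0.18 ± 0.05), a call lost without KO2 replicate 1 of 9 h (0.12) or WT replicate 2 of 9 h (0.12). It turned to -0.95 in KO2 with spike-in scaling.

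Set against WT at the same time, the list stood higher in both KO lines at 3 h and no longer did so at 9 h. At 3 h, 34 members were higher and 3 lower in KO1, against 20.1% and 16.7% of all genes, and 36 were higher and 1 lower in KO2, against 21.1% and 17.6%. At 6 h the counts were 18 higher and 8 lower in KO1, against 18.4% and 17.4%, and 13 and 8 in KO2, against 17.5% and 16.8%. At 9 h they were 6 higher and 10 lower in KO1, against 19.3% and 15.1%, and 9 and 14 in KO2, against 18.7% and 16.5%, so higher calls were no more frequent in the list than over all genes. The medians in KO1 were 0.18, 0.15, 0.08 and 0.01 from 0 h to 9 h, and in KO2 0.09, 0.21, 0.03 and -0.01. The 3 lower genes of KO1 at 3 h became 1 without KO1 replicate 1 or WT replicate 1, and the 1 of KO2 became 0 without KO2 replicate 2 or WT replicate 1. The 8 lower genes of KO1 at 6 h became 5 without WT replicate 2, and the 8 of KO2 became 4 without KO2 replicate 2 and 5 without either WT replicate. The 9 higher genes of KO2 at 9 h became 5 without KO2 replicate 1 or WT replicate 1. With upper-quartile scaling the 6 h counts were 8 higher and 10 lower in KO1 and 9 and 9 in KO2. The 9 h counts on that scale were 5 and 16 in KO1 and 4 and 17 in KO2. All-gene shares on that scale are not given.

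Utp20 stood out at 3 h. It had 131 and 133 CPM in KO1 and 137 and 135 CPM in KO2, against 71.0 and 71.5 CPM in WT, log2 differences of 0.89 ± 0.05 in KO1 and 0.93 ± 0.05 in KO2 (edgeR adjusted p = 1.17e-32 and 2.75e-34). It was still higher in both lines at 9 h, with 64.3 and 67.0 CPM in KO1 and 61.8 and 62.9 CPM in KO2, against 53.7 and 51.9 CPM in WT. Ddx10 at 3 h had 33.0 and 33.7 CPM in KO1 and 30.6 and 30.7 CPM in KO2, against 20.5 and 20.2 CPM in WT (log2 difference 0.71 ± 0.09 in KO1 and 0.59 ± 0.09 in KO2), and its 9 h levels passed the test in neither line. Heatr1 at 3 h had 151 and 152 CPM in KO1 and 151 and 151 CPM in KO2, against 106 and 102 CPM in WT (log2 difference 0.55 ± 0.04 in KO1 and 0.54 ± 0.04 in KO2). At 9 h its log2 differences were 0.01 ± 0.06 in KO1 and -0.06 ± 0.06 in KO2, neither called. For all 3 genes the KO and WT libraries of 3 h did not overlap. Imp3 was lower in KO1 and KO2 at 3 h (-0.18 ± 0.07 in KO1 and -0.17 ± 0.07 in KO2), but the KO2 call was lost without WT replicate 1 or KO2 replicate 2 (-0.12 and -0.08), with DESeq2 or the replicate block (-0.17 each) and without the filter on low counts (-0.16). The KO1 call was lost without KO1 replicate 1, KO1 replicate 2 or WT replicate 1 (-0.15, -0.21 and -0.13) and without the filter (-0.17). Tsr1, a GTPase-like pre-40S factor with 32.3% of its exon bases shared with Srr, was lower in KO1 at 3 h (-0.13 ± 0.05), a call lost without KO1 replicate 1 or either WT replicate (-0.10, -0.12 and -0.13), or without the filter (-0.12).

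**Figure D3:**
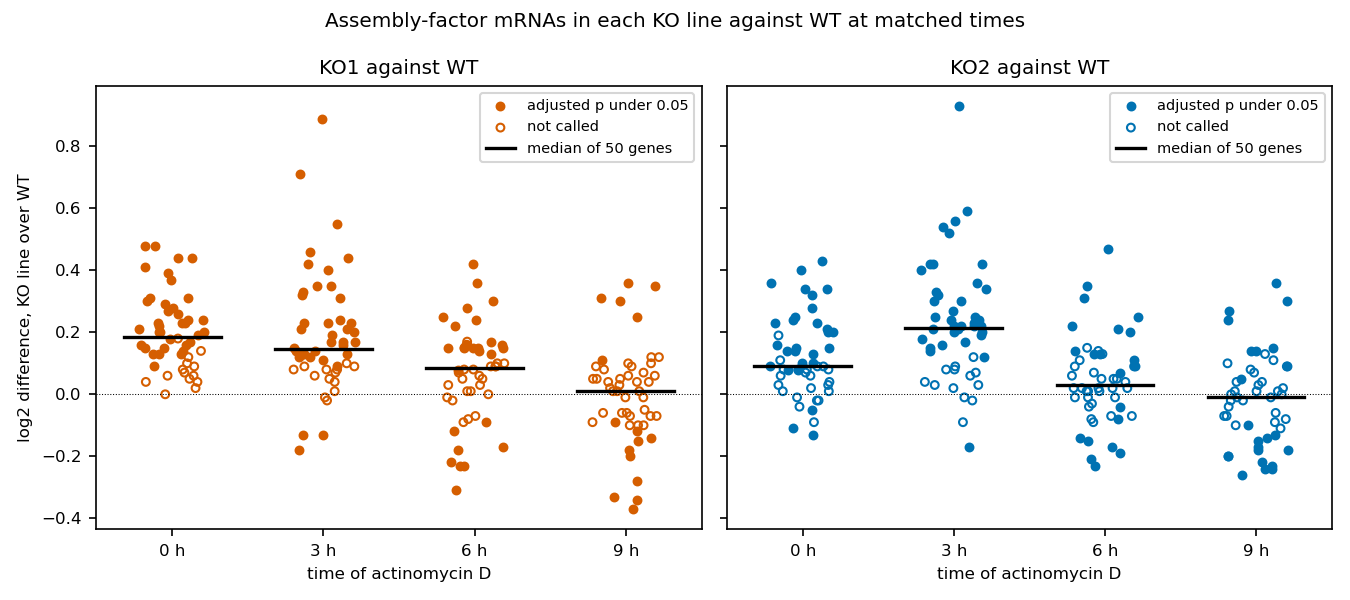
Log2 difference from WT (y axis) of the 50 genes at 0, 3, 6 and 9 h of actinomycin D (x axis), KO1 on the left and KO2 on the right. Each point is a gene, filled where the edgeR adjusted p was under 0.05, and the black bar is the median of 50, which is 0.18 in KO1 and 0.09 in KO2 at 0 h and 0.01 and -0.01 at 9 h; the highest point at 3 h in both panels is Utp20.

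At 9 h named genes lay on both sides of WT. Wdr43 had 98.0 and 104.6 CPM in KO1 and 104 and 98.1 CPM in KO2, against 78.2 and 79.3 CPM in WT, a log2 difference of 0.36 ± 0.04 in KO1 and 0.36 ± 0.04 in KO2. Wdr36, a UTP-B protein, had 44.9 and 45.3 CPM in KO1 and 42.9 and 44.1 CPM in KO2, against 33.2 and 37.3 CPM in WT (log2 difference 0.35 ± 0.06 in KO1 and 0.30 ± 0.06 in KO2). Nop14 remained higher in both lines, by 0.25 ± 0.04 in KO1 and 0.27 ± 0.04 in KO2. Nolc1 had 197 and 194 CPM in KO1 and 204 and 216 CPM in KO2, against 251 and 253 CPM in WT, log2 differences of -0.37 ± 0.03 in KO1 and -0.26 ± 0.03 in KO2. Dkc1, which had been higher than WT at 0 h, was lower at 9 h, at -0.34 ± 0.05 in KO1 and -0.23 ± 0.04 in KO2. Rrp12 and Rrs1 likewise were lower at 9 h, with -0.33 ± 0.06 and -0.28 ± 0.05 in KO1 and -0.22 ± 0.06 and -0.24 ± 0.05 in KO2. Rrs1 had 69.3 and 68.5 CPM in KO1 and 72.03 and 69.0 CPM in KO2, against 81.0 and 85.8 CPM in WT, with no overlap. Npm1 at 9 h was higher in KO1 (0.30 ± 0.02) and by little in KO2 (0.05 ± 0.02). At 6 h, Gar1 was higher in KO2 (51.0 and 50.1 CPM in KO2, against 39.4 and 39.6 CPM in WT). Utp15 was lower in KO2 at 6 h with 47.8 and 50.3 CPM in KO2, against 56.2 and 55.4 CPM in WT, a call lost without WT replicate 1 or KO2 replicate 1 (-0.17 and -0.15).

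The test of whether the early change differed from WT gave mixed answers. Between 0 h and 3 h, 10 members changed more upward in KO1 than in WT and 13 more downward, against 13.1% and 12.7% of all genes. In KO2 the counts were 17 and 5, against 13.3% and 11.4%, and the count of 5 became 2 without WT replicate 1 or 2 of 0 h and 3 without any other library. The median difference was -0.04 in KO1 and 0.11 in KO2. Ddx10 (0.66 ± 0.11 in KO1 and 0.58 ± 0.11 in KO2), Utp20 (0.41 ± 0.06 in KO1 and 0.50 ± 0.06 in KO2) and Utp14a (0.41 ± 0.08 in KO1 and 0.35 ± 0.08 in KO2) were highest in KO1 and KO2. Utp14a, a helicase cofactor of the processome, had 93.7 and 93.8 CPM in KO1 and 94.6 and 92.3 CPM in KO2 at 3 h, against 69.4 and 70.3 CPM in WT, after similar 0 h levels of 64.6 and 58.9 CPM in KO1, 64.1 and 63.6 CPM in KO2 and 58.9 and 63.1 CPM in WT. Rrp12 changed more downward in KO1 (-0.40 ± 0.07), with 81.7 and 80.1 CPM at 3 h in KO1, against 83.4 and 77.1 CPM in WT. Tsr1 (-0.32 ± 0.07) and Utp6 (-0.31 ± 0.07) were next in KO1. In KO2 the lowest were Tsr1 (-0.21 ± 0.07), Rrs1 (-0.24 ± 0.06) and Imp3 (-0.24 ± 0.09). The KO2 call of Tsr1 was lost without WT replicate 2 of 0 h or KO2 replicate 1 of 0 h or 3 h (-0.18 to -0.20), and that of Imp3 without WT replicate 1 or 2 of 0 h, WT replicate 1 of 3 h, KO2 replicate 1 of 0 h or KO2 replicate 2 of 3 h (-0.16 to -0.25), with DESeq2 (-0.24) and without the filter on low counts (-0.23). These contrasts contain the 0 h libraries, so a higher 0 h level in a KO line lowers them.

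The change from 3 h to 9 h was lower in the KO lines than in WT for much of the list, and this contrast uses no 0 h library. In KO1, 25 of 50 were lower and 1 was higher, against 10.1% and 11% of all genes. In KO2, 31 were lower and 0 higher, against 10.8% and 9.99%. The median difference was -0.19 in KO1 and -0.23 in KO2, beside -0.02 and -0.02 over all genes. Upper-quartile scaling gave 27 lower in KO1 and 31 in KO2, relative-log-expression scaling gave 22 and 27, and leaving out any 1 library of those used gave 21 to 25 in KO1 and 26 to 31 in KO2. At 3 h the same libraries stood above WT for most members, so this contrast shares its 3 h values with the 3 h comparison.

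Utp20 had the lowest or next to lowest value of the late contrast, -0.58 ± 0.07 in KO1 and -0.69 ± 0.07 in KO2 (edgeR adjusted p = 1.12e-10 and 7.9e-14). Heatr1 gave -0.54 ± 0.07 in KO1 and -0.60 ± 0.07 in KO2, Dkc1 -0.55 ± 0.06 in KO1 and -0.45 ± 0.06 in KO2, and Ddx10 -0.62 ± 0.15 in KO1 and -0.49 ± 0.15 in KO2. Dkc1 had 268 and 263 CPM in KO1 and 271 and 264 CPM in KO2 at 3 h, against 228 and 232 CPM in WT, and stood below WT in both lines at 9 h. Rrp12 differed by -0.34 ± 0.08 in KO1 and -0.55 ± 0.08 in KO2. All 4 box C/D genes were lower in both lines, between -0.19 and -0.45, against 10.1% of all genes in KO1 and 10.8% in KO2. Of the large-subunit genes 6 of 11 were lower in KO1 and 10 in KO2, against the same shares of all genes. Bop1, which works with Pes1 and Wdr12, gave -0.38 ± 0.07 in KO1 and -0.40 ± 0.07 in KO2, and Wdr12 -0.41 ± 0.06 in KO1 and -0.28 ± 0.06 in KO2. In the MPP10 complex only Imp4 in KO1 passed (-0.16 ± 0.05). Npm1 was the 1 gene higher in KO1 (0.10 ± 0.02), joined by another without WT replicate 2 of 9 h, and was lower in KO2 (-0.08 ± 0.03). Nat10 itself gave -0.33 ± 0.08 in KO1 and -0.36 ± 0.08 in KO2, both called lower.

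**Figure D4:**
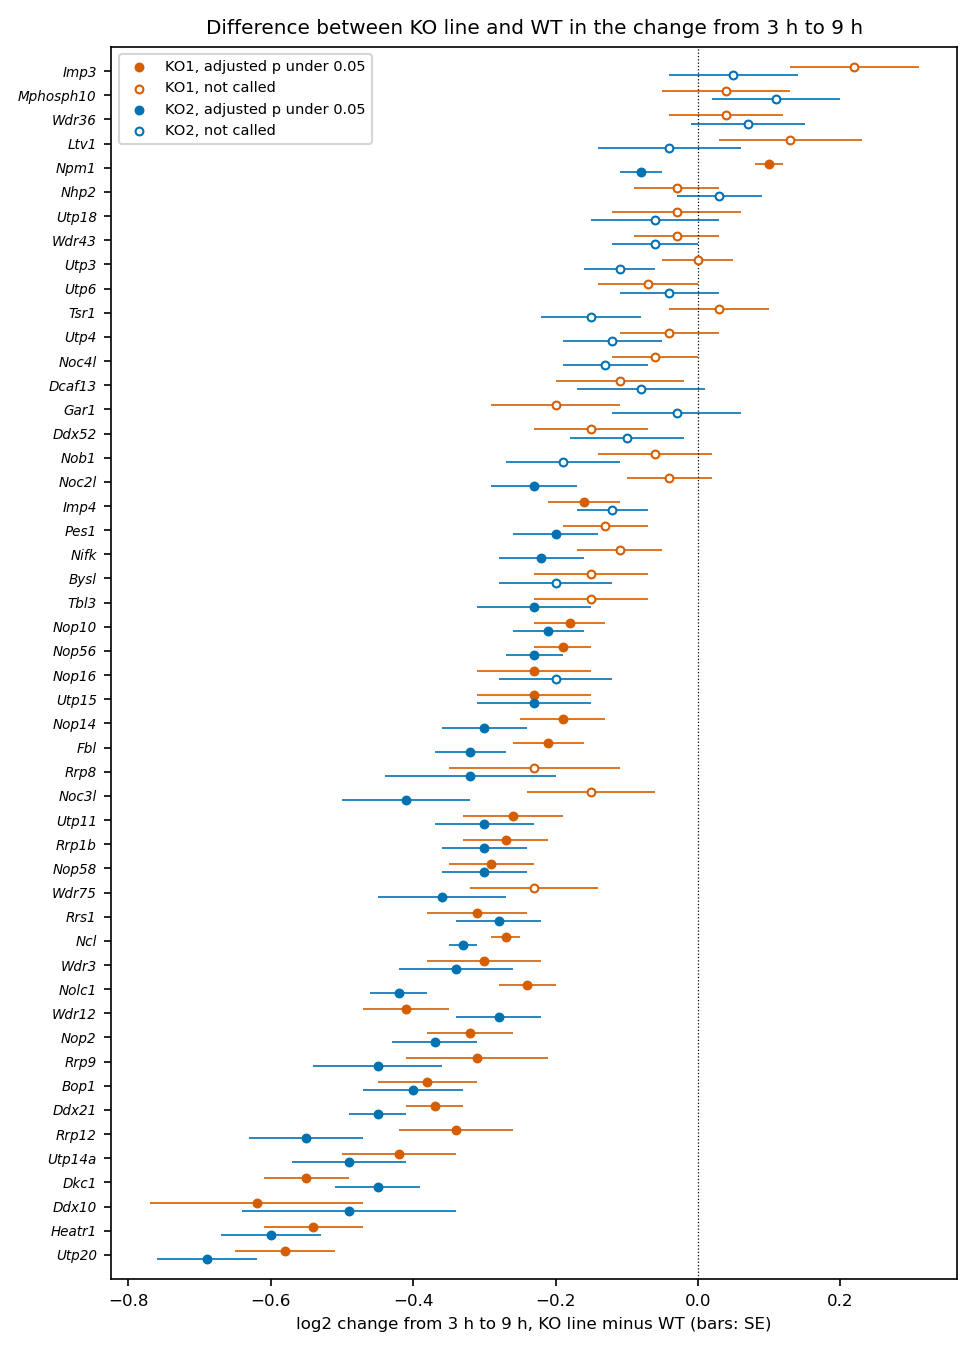
Difference between KO line and WT in the log2 change from 3 h to 9 h (x axis) for each of the 50 genes (y axis, ordered by the mean of both lines), KO1 in orange above KO2 in blue. Bars are standard errors and filled points have an edgeR adjusted p under 0.05. Most points lie left of 0, with Utp20 and Heatr1 farthest in the mean of both lines. Imp3, Mphosph10 and Wdr36 lie right of 0 in both lines, and none of them was called in either.

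Other genes of the pathway were set beside the list. Of 94 further assembly genes, 93 were matched. Both lists were chosen with earlier results of these data known. At 0 h, 53 of 93 were higher and 1 lower in KO1, against 15% and 12.3% of all genes. In KO2 33 were higher and 5 lower, against 15.1% and 14.3%. The medians were 0.18 and 0.09, the same to 2 decimals as those of the 50. At 9 h against 0 h, 62 were lower and 22 higher in KO1, against 38.3% and 42.2% of all genes. The counts were 60 and 23 in KO2, against 38.8% and 42%, and 56 and 27 in WT, against 38.5% and 43.2%. Their 9 h medians of -0.47, -0.36 and -0.33 were nearer 0 than those of the 50 (-0.91, -0.80 and -0.68); this difference was not tested. The late contrast called 27 lower and 3 higher in KO1, against 10.1% and 11% of all genes. It called 36 lower and 1 higher in KO2, against 10.8% and 9.99%. Utp23 and Rrp36, small-subunit factors, rose by 9 h in each genotype as Utp3 did, Utp23 by 1.80 ± 0.07 in KO1, 1.79 ± 0.07 in KO2 and 1.75 ± 0.07 in WT. Nol10, whose yeast counterpart belongs to the processome, changed by -3.06 ± 0.12 in KO1, -2.89 ± 0.12 in KO2 and -2.77 ± 0.12 in WT. Mdn1, the giant ATPase of large-subunit assembly, gave -0.72 ± 0.06 in KO1 and -0.79 ± 0.06 in KO2 in the late contrast.

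Gene span went with the size of the fall. Spans ran from 924 to 149419 bp with a median of 15235 bp, beside 14989 bp over all tested genes. Across the 50 genes, Spearman's rho between span and the 9 h change was -0.56 in KO1, -0.59 in KO2 and -0.56 in WT, beside -0.36, -0.36 and -0.39 across all 16167 tested genes. These are descriptions across genes, which share libraries and are not independent replicates. Exon length gave -0.44, -0.47 and -0.42 at 9 h. The 3 genes of 1 exon block, Imp3, Utp3 and Rrs1, were not among the genes that fell 2-fold in any genotype. Most members also missed such a fall at 9 h, which was reached by 20, 19 and 13 of 50 in KO1, KO2 and WT. Over all tested genes it was reached by 22.1%, 22.5% and 22.6%, so these 3 genes say little about span. In all, 20 of the 50 share exon bases with another annotated gene, 4 of them over 10% (Tbl3, Tsr1, Wdr3 and Noc2l), and since reads were counted without strand these cannot be told apart from their neighbours there.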

How the data were processed

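Polyadenylated RNA from 24 libraries of 32D cells was compared, 2 for each of 12 groups. Per the file headers, the authors made the deposited counts with featureCounts 1.6.3 from read pairs, without strand, over exons of Ensembl release 105 genes on GRCm build 39. The submitters' processing notes also name STAR and DESeq2, without versions. The kit marks strand and the counting did not use it, so antisense overlaps cannot be told apart.

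From the counts, edgeR 4.0.16 in R 4.3.3 fitted a quasi-likelihood model of 12 groups to all libraries, with TMM scaling and filterByExpr at a minimum count of 10, leaving 16167 genes. p-values were Benjamini-Hochberg adjusted over these genes for each of 22 comparisons, with a threshold of 0.05. The script was tested on simulated data. Spike-ins were left out of library sizes. CPM per kb used the listed exon length. Totals of 15361601 to 17338939 counts set the precision. The members and gene lists were chosen with earlier results of these data known. Any member may be named. Values by library are given first for up to 3 called members with the highest and 3 with the lowest change in each comparison (mean of at least 5 CPM) and for the most abundant member of each role; library values of other members were chosen after seeing them. Alternatives were DESeq2 1.42.0, relative-log-expression, spike-in and upper-quartile scaling, no filter, a replicate block, the 0 h libraries alone and leaving out each library.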

Additional observations from a re-analysis of the deposited data

Results flagged for a closer look

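The KO lines and WT were compared in how far each member changed between times, and the results below are those where the change itself differed by edgeR's quasi-likelihood test with Benjamini-Hochberg adjustment. Between 0 h and 3 h, 10 of the 50 genes changed more upward and 13 more downward in KO1 than in WT, against 13.1% and 12.7% of all genes. In KO2, 17 changed more upward and 5 more downward than in WT, against 13.3% and 11.4% of all genes. The 5 downward genes are no more frequent than over all genes, and they became 2 or 3 on leaving out any 1 library used. Between 3 h and 9 h, 1 changed more upward and 25 more downward in KO1, against 11% and 10.1% of all genes, and 31 more downward in KO2, against 10.8%.

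The early difference on the log2 scale was 0.66 in KO1 and 0.58 in KO2 for Ddx10. For Utp20 it was 0.41 in KO1 and 0.50 in KO2, and for Utp14a 0.41 and 0.35. On the low side, Utp6, Tsr1 and Rrp12 gave -0.31, -0.32 and -0.40 in KO1, and Tsr1, Rrs1 and Imp3 gave -0.21, -0.24 and -0.24 in KO2.

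The late difference was 0.10 for Npm1, -0.55 for Dkc1, -0.58 for Utp20 and -0.62 for Ddx10 in KO1. In KO2 it was -0.55 for Rrp12, -0.60 for Heatr1 and -0.69 for Utp20. KO1 and KO2 were set against the same WT libraries. The early and late contrasts also share their 3 h libraries, which enter them with opposite signs.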

How the results depend on the processing

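The counts of members depend mostly on the scale. On scales other than TMM they are given without all-gene shares, so they do not show how the list stood against all genes. With spike-in scaling, 2 members were higher at 6 h than at 0 h in KO1. In KO2, 4 were higher and 36 lower at 3 h than at 0 h, 1 was higher at 6 h and 1 at 9 h. Pes1 then changed by -0.25 in KO1 and -0.96 in KO2 at 6 h, Utp3 by -0.07 in KO2 at 6 h, and Nop10 and Ddx52 by -0.02 and -0.95 in KO2 at 9 h. Spike-in counts of 120 to 257 in WT libraries were too few, so that scale was not run there. With upper-quartile scaling, chosen after seeing the data, members higher at 6 h numbered 16 in KO1, 17 in KO2 and 18 in WT, those higher at 9 h 6, 5 and 12, and those lower at 3 h 7 in KO2 and 11 in WT. Against WT on that scale, KO1 had 8 higher at 6 h and 16 lower at 9 h, and KO2 had 2 lower at 3 h and 4 higher at 9 h. Without the filter on low counts, 1 member was lower in KO1 and 0 in KO2 against WT at 3 h, and 3 changed more downward in KO2 between 0 h and 3 h. The calls of Utp4 at 0 h in KO2, of Tsr1 and Imp3 against WT at 3 h and of Imp3 in the early contrast of KO2 were also lost without it. Against WT at the same time, DESeq2 called 5 lower in KO1 and 4 lower in KO2 at 6 h, and 0 lower in KO2 at 3 h. Relative-log-expression scaling left 2 higher in the late contrast of KO1. Same-numbered libraries did not deviate together across genotypes: 4 of 66 group pairs correlated above 0.1, with a median r of 0.014. All 4 were pairs of KO2 times, where r ran from 0.072 to 0.154 and not every pair was above 0.1. A fit with the replicate block left 0 lower in KO2 than in WT at 3 h, since Imp3 (log2 difference -0.17) missed the threshold with that block. The block left the counts of KO2 members changed against 0 h within 1.5 times.

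Leaving out 1 library at a time gave 0 to 2 members lower in KO2 than WT at 0 h and 9 to 11 lower in KO2 than KO1. Against WT it gave 1 to 2 lower in KO1 and 0 to 1 lower in KO2 at 3 h, 5 to 8 lower in KO1 and 4 to 6 lower in KO2 at 6 h, and 5 to 7 higher in KO2 at 9 h. It gave 1 to 2 higher in the late contrast of KO1 and 2 to 3 lower in the early contrast of KO2. With 2 libraries per group, a difference that missed the threshold is not shown to be absent.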
